A study of Drosophila melanogaster with 34 samples.

Results

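Small RNA recovered by PIWI immunoprecipitation from the seminal vesicle of Drosophila melanogaster was compared with the small RNA of testis. The aim was to show which transposable elements, piRNA clusters and genic sources lead in each. The comparison used 7 of the 34 samples of the study: 4 seminal vesicle (SV) PIWI immunoprecipitates (IP), numbered 1 to 4, and 3 testis libraries, 1 each from the groups T1, T2 and T3. Both tissues came from males labelled wild type (WT), and no mutant allele or treatment is named for them. The labels give neither strain nor age, they do not say what T1, T2 and T3 stand for, and they list 2 samples per T group, of which 1 has a column that could be used. Features were kept where the deposited tables gave a value in all 7 libraries, which left 67382 of 84383 rows: 41547 of 46612 in sense orientation and 25835 of 37771 in antisense. A row is a feature on 1 strand: the reads that lie along a transposable element, cluster or gene (sense) or on its opposite strand (antisense). In addition, 2 libraries of SV total RNA are given beside some results as values, without a test.

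The seminal vesicle is the male storage organ for mature sperm, and the testis holds the germline and the somatic cells in which sperm are made. Piwi, Aubergine and Argonaute 3 are Argonaute proteins that bind piRNAs, small RNAs cut from long single-strand precursors of piRNA clusters, from transposon transcripts and from some messenger RNAs. Piwi acts in the nuclei of germline and somatic gonad cells, where piRNAs antisense to transposons guide it to nascent transcripts, whereas miRNAs work mainly through Argonaute 1 and endogenous siRNAs through Argonaute 2.

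The 4 IP libraries held 18016679, 18725487, 11145919 and 2362478 assigned counts, against 3803310, 3649830 and 6202476 in testis T1, T2 and T3. No library was a copy of another. IP, tissue and library volume differ together between the groups, since the labels give a reduced reaction volume for testis library making, so their contributions cannot be told apart. The labels do not say whether the libraries of a group came from separate animals, and p-values then measure only the spread between these libraries. In bulk tissue, fewer cells of a type and less RNA per cell cannot be told apart either. Counts over marker genes went with the tissue labels for the germline: the sum over 23 of 25 listed testis germline rows was 132, 212, 262 and 207 counts per 1000000 (CPM) in SV PIWI IP, against 1440, 1994 and 1515 CPM in testis. Fragments of vasa (vas), which encodes the germline RNA helicase Vasa, had 0.999, 1.07, 0.807 and 0 CPM in SV PIWI IP, against 97.8, 80.8 and 21.3 CPM in testis. Not every germline row separated the groups: fzo, twe, bam, nos and sa had overlapping ranges. For fzo the values were 2.44, 5.18, 6.998 and 11.9 CPM in SV PIWI IP, against 13.9, 9.86 and 4.84 CPM in testis. For the other tissues listed, the sums were higher in every IP library than in any testis library. The sum over 15 of 18 accessory gland rows was 222, 255, 360 and 404 CPM in SV PIWI IP, against 3.94, 4.11 and 2.58 CPM in testis, where 9 of these rows were at 0 in all 3 libraries. The 14 muscle rows summed to 715, 1723, 1645 and 2602 CPM in SV PIWI IP, against 180, 334 and 239 CPM in testis. Fat body rows, all 7 present, summed to 5762, 316, 264 and 339 CPM in SV PIWI IP, against 8.15, 13.2 and 14.7 CPM in testis, and to 646 and 95.3 CPM in the 2 libraries of SV total RNA. In IP 2, IP 3 and IP 4 most of this sum was apolpp, with 225, 246 and 334 CPM, against 6.84, 11.2 and 11.1 CPM in testis. The other fat body genes were high mainly in IP 1. Lsp2 had 865, 15.9, 2.06 and 0 CPM in SV PIWI IP, against 0.526, 0.822 and 0.967 CPM in testis. Hemocyte rows summed to 170 to 244 CPM in SV PIWI IP, against 8.15 to 17.3 CPM in testis, with He at 0 in the IP. IP 1 therefore stood apart in fat body fragments. The labels attach the text on UV-crosslinking and immunoprecipitation to IP 1 and the text on RNA extraction to IP 2 to 4, without saying whether the 4 were prepared alike, and the part of preparation in the differences of IP 1 was not tested. Results that rest on it are given with and without it. No list of seminal vesicle markers was used, and no mock IP was analysed here. How much of the RNA in the IP libraries was bound to PIWI was therefore not tested.

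Ribosomal RNA took most counts of both groups, and its ranges overlapped. Its share of assigned counts was 79.1, 66.2, 64.4 and 62.7% in SV PIWI IP, against 66.1, 70.2 and 79.2% in testis (two-sided exact permutation test, p = 0.457). Shares outside rRNA were therefore compared as well. With 4 against 3 libraries there are 35 splits, so the smallest two-sided p is 0.0571 and no share can pass 0.05. A class whose groups do not overlap reached that smallest p, which is 0.0714 after Benjamini-Hochberg adjustment over 20 classes.

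Outside rRNA, the miRNA share was higher in the PIWI IP of the vesicle, and the shares of piRNA clusters and transposable elements were higher in testis. The miRNA share was 39.7, 52.8, 46.4 and 48.3% in SV PIWI IP, against 7.83, 10.4 and 6.51% in testis, with means of 46.8 ± 5.47% in SV PIWI IP and 8.25 ± 1.99% in testis (SD, n = 4 and 3; exact permutation p = 0.0571). The groups lay far apart, and SV total RNA averaged 44.4%, close to the IP level. Reads antisense to transposable elements made up 1.12, 1.07, 1.23 and 1.39% in SV PIWI IP, against 18.1, 12.7 and 5.25% in testis, a share 10.0-fold lower in the IP by means. T3 was the lowest testis library and still lay above every IP library, and SV total RNA averaged 0.302%. Reads in sense to transposable elements made up 2.81, 2.56, 3.46 and 3.19% in SV PIWI IP, against 11.4, 8.19 and 3.56% in testis, where T3 came close to the IP range. SV total RNA averaged 0.471% for sense transposon reads. The piRNA clusters on the sense strand made up 8.18, 2.61, 2.24 and 1.81% in SV PIWI IP, against 22.0, 23.9 and 30.99% in testis. SV total RNA held 13.2 and 10.4% for sense clusters, above every IP library. IP 1 was the highest IP library here, and most of this class is a single feature, cluster92, described with the clusters. Without cluster92, the other clusters in sense made up 0.173, 0.166, 0.183 and 0.184% of counts outside rRNA in SV PIWI IP, against 5.05, 3.66 and 1.54% in testis, again with no overlap. SV total RNA then held 0.0912 and 0.0909%, below every IP library.

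Genic and structural classes split in both directions. Coding exons in sense gave 24.4, 20.5, 22.5 and 21.6% in SV PIWI IP, against 11.4, 14.6 and 17.2% in testis, without overlap. The 5′ UTR share averaged 3.47 ± 0.392% in SV PIWI IP and 2.13 ± 0.572% in testis, also without overlap, whereas the 3′ UTR share averaged 7.12 ± 1.04% in SV PIWI IP and 4.66 ± 1.25% in testis and overlapped (exact permutation p = 0.114). Transfer RNA fragments averaged 2.60 ± 1.04% in SV PIWI IP and 6.87 ± 2.39% in testis, and snoRNA fragments, from the guide RNAs of rRNA modification, averaged 2.07 ± 0.218% in SV PIWI IP and 5.46 ± 1.51% in testis. Reads antisense to non-coding RNA genes other than these, the class that holds the Suppressor of Stellate copies, averaged 0.747 ± 0.194% in SV PIWI IP and 2.61 ± 0.860% in testis. Reads antisense to pseudogenes averaged 0.00775 ± 0.00112% in SV PIWI IP and 0.323 ± 0.155% in testis, a 41.7-fold lower share in the IP. Without IP 1 or without T3, the miRNA difference of 38.6 percentage points became 40.9 and 37.7, the antisense transposon difference of −10.8 became −10.8 and −14.2, and the cluster difference of −21.9 became −23.4 and −19.3.

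**Figure D1:**
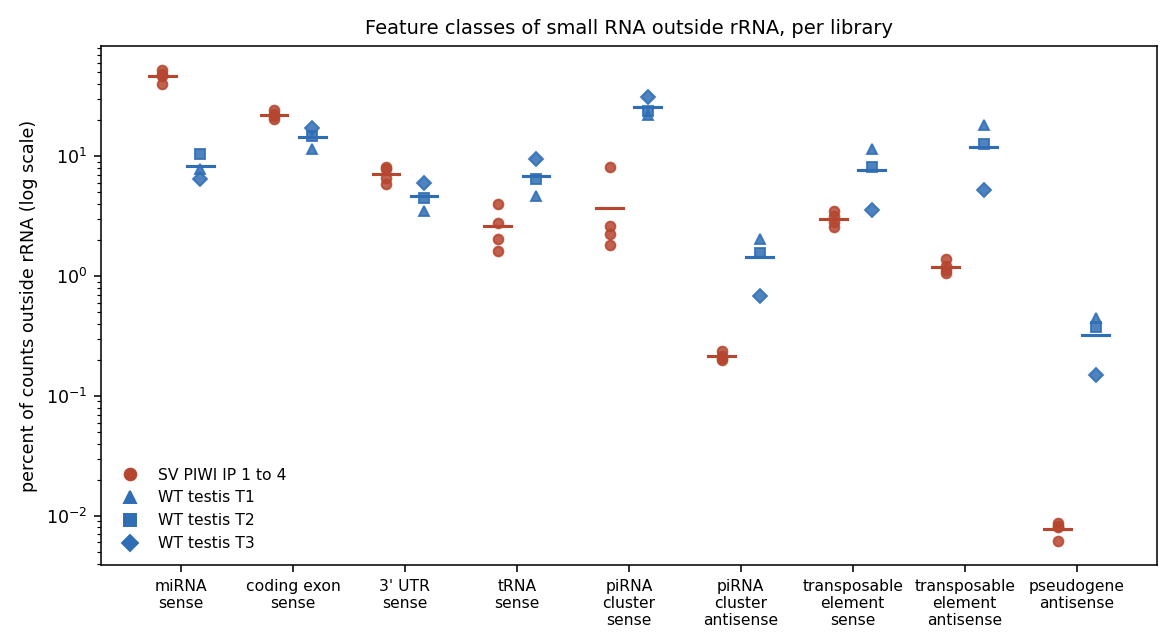
Share of counts outside rRNA by feature class, in percent on a log axis, with SV PIWI IP (circles) left of testis T1, T2 and T3 (triangle, square, diamond) and a bar at each group's mean. The IP libraries lie above all testis libraries for miRNAs and coding exons and below them for tRNA, piRNA clusters, transposable elements and antisense pseudogene reads, and IP 1 is the high circle among sense clusters.

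Across all features, 11804 rows had enough counts to be tested with edgeR's quasi-likelihood test (Benjamini-Hochberg adjusted p under 0.05), and 61.8% of them were called: 3920 (33.2%) higher in SV PIWI IP and 3372 (28.6%) lower. The median log2 fold change over all tested rows was 0.30 with the trimmed mean of M values (TMM) scaling used here, 0.18 with median-of-ratios (RLE) size factors and 0.87 with total counts, and the share of calls that were higher was 53.8%, 50.5% and 67.0% under these 3 scalings. Fold changes of a class are read against that shift. A row could pass the count filter through 1 group alone, so counts of calls describe the rows that passed. Counts of calls in a class or list are read against the shares over all rows of the strand. These were 32.9% higher and 27.5% lower among 10884 tested sense rows, and 36.6% and 41.6% among 920 antisense rows. Values of single rows below are TMM-scaled CPM, and fold changes are SV PIWI IP over testis. Sums over a list or family of rows, and the marker gene values above, are CPM of total assigned counts without TMM. They are not on the same scale as single rows.

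Antisense transposon RNA, the kind that can pair with transposon transcripts, was lower in the IP for nearly every family. Of 205 antisense rows (the internal part and the LTR of an element are separate rows, each called a family here), 170 could be tested: 9 were called higher in SV PIWI IP, 142 were called lower and 19 were not called, with a median log2 fold change of −3.38, against 0.30 over all tested rows. The counts were 7 and 142 with RLE size factors and 10 and 132 with total counts. Among all 920 tested antisense rows 36.6% were called higher and 41.6% lower.

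The families that led the antisense transposon reads differed between the groups. In SV PIWI IP the first was the internal part of roo (ROO_I-int), a BEL-Pao type LTR retrotransposon, with 7.28 ± 0.333% of antisense transposon counts, against 2.78 ± 0.192% in testis. The F element (FW_DM), a non-LTR retrotransposon, followed with 6.06 ± 0.157% in SV PIWI IP and 4.50 ± 0.362% in testis. DNAREP1_DM, a Helitron-type family, held 5.64 ± 0.802% in SV PIWI IP and 0.402 ± 0.0969% in testis. Doc (DOC) and DMCR1A, both non-LTR elements, came next with 4.66 ± 0.262% and 3.63 ± 0.361% in the IP, against 1.96 ± 0.145% and 1.31 ± 0.163% in testis. In testis the leader was Baggins1, a non-LTR element, with 1.49 ± 0.321% in SV PIWI IP, against 11.3 ± 0.746% in testis. NOMAD_I-int, a gypsy-type LTR element, held 3.19 ± 0.370% in SV PIWI IP and 8.67 ± 0.892% in testis, and R1_DM, which inserts in ribosomal DNA, held 0.773 ± 0.299% in SV PIWI IP and 7.52 ± 0.663% in testis. Only FW_DM stood among the first 5 of both groups. The first 10 shared 3 families (30.0% of each list) and the first 20 shared 10 (50.0% of each list). The 5 leaders together held 26.6% to 29.01% of antisense transposon counts in the IP libraries and 33.9% to 37.5% in testis.

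Values in each library show how far the families separated. Baggins1 antisense had 50.8, 57.4, 38.6 and 42.1 CPM in the SV PIWI IP libraries, against 7585, 5577 and 1716 CPM in testis (edgeR log2 fold change −6.71 ± 0.62 SE, adjusted p = 5.8e-06). R1_DM antisense had 24.4, 33.5, 25.8 and 13.2 CPM in the SV PIWI IP libraries, against 4762, 3776 and 1184 CPM in testis (edgeR log2 fold change −7.06 ± 0.65 SE, adjusted p = 5.7e-06). NOMAD_I-int antisense had 95.9, 102, 110.5 and 98.3 CPM in the SV PIWI IP libraries, against 5486, 4435 and 1333 CPM in testis (edgeR log2 fold change −5.20 ± 0.57 SE, adjusted p = 1.3e-05). In all 3 families each IP library lay far below each testis library, and within testis T3 was the lowest. The leaders of the IP were lower there too, with smaller fold changes. FW_DM antisense had 193, 184, 186 and 212 CPM in the SV PIWI IP libraries, against 3385, 1952 and 692 CPM in testis (edgeR log2 fold change −3.37 ± 0.54 SE, adjusted p = 0.00017). ROO_I-int antisense had 223, 220.5, 213 and 278 CPM in the SV PIWI IP libraries, against 1780.4, 1362 and 442 CPM in testis (edgeR log2 fold change −2.35 ± 0.50 SE, adjusted p = 0.0013). DOC antisense had 139, 150.1, 133 and 175 CPM in the SV PIWI IP libraries, against 1466, 853 and 304 CPM in testis (edgeR log2 fold change −2.55 ± 0.51 SE, adjusted p = 0.00092). Again no IP library reached the testis range, so these families led the IP by share while their CPM was below that of testis. DNAREP1_DM antisense is the leader that did not separate the groups: it had 154, 154, 181 and 238 CPM in the SV PIWI IP libraries, against 235, 160.5 and 81.9 CPM in testis (edgeR log2 fold change 0.19 ± 0.44 SE, adjusted p = 0.72), with overlapping ranges.

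Gypsy-clade LTR elements, among them the targets of the somatic piRNA pathway, gave 0 higher and 37 lower of the 37 antisense rows on the list used, with a median log2 fold change of −3.63 (0 higher and 36 lower with total counts). The list does not hold every gypsy-type row: TRANSPAC_I-int and Gypsy9_LTR, outside it, were called higher in antisense. ZAM_I-int and IDEFIX_I-int, elements repressed by the flam cluster in ovarian follicle cells, had antisense log2 fold changes of −3.33 and −3.13. The smallest called change of the clade named here was Gypsy5_I-int, at −1.22 with overlapping libraries, and its call was lost under 5 of the alternatives. The elements best known from the germline gave 0 higher and 19 lower of 23 tested (26 rows; median −3.37). The I element (I_DM), the agent of I-R hybrid dysgenesis, had a log2 fold change of −1.46, and its call was lost with total counts and without the count filter. Telomeric retrotransposons, which extend chromosome ends, were all lower: HETA antisense had 15.5, 16.5, 17.2 and 31.9 CPM in the SV PIWI IP libraries, against 165, 155 and 65.1 CPM in testis (edgeR log2 fold change −2.67 ± 0.44 SE, adjusted p = 0.00021), and TART, TART_B1 and TAHRE gave −3.14, −4.10 and −1.74, TAHRE with overlapping libraries.

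The 9 antisense families called higher in SV PIWI IP all had low counts, and several are DNA transposons. FROGGER_I-int had 6.82, 7.999, 5.77 and 8.19 CPM in the SV PIWI IP libraries, against 0.883, 0.997 and 0.708 CPM in testis (edgeR log2 fold change 3.05 ± 0.43 SE, adjusted p = 6.7e-05), without overlap. TRANSIB3, Galileo_DM and Mariner2_DM, all DNA transposons, had log2 fold changes of 3.18, 3.08 and 2.12, and TC1_DM, of the same Tc1-mariner kind, had 1.76. PLACW_DM, TRANSPAC_I-int and FW3_DM gave 1.72, 1.13 and 1.00. Gypsy9_LTR had 2.86, 2.19, 0.878 and 2.34 CPM in SV PIWI IP and was at 0 in all 3 testis libraries. The highest mean among the 9 in SV PIWI IP was 8.06 CPM, for TRANSIB3.

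Sense transposon reads gave another picture: a few families carried them in the IP. Of 202 families with a sense row, 165 could be tested, and 13 were called higher in SV PIWI IP, 98 lower and 54 were not called, with a median log2 fold change of −1.61 (7 higher and 101 lower with RLE size factors, 20 and 81 with total counts). Of all tested sense rows 32.9% were called higher and 27.5% lower. Shares are of reads and not per length of a family. Doc alone held 43.3 ± 4.96% of sense transposon counts in SV PIWI IP, against 1.19 ± 0.336% in testis and a mean of 9.47% in SV total RNA. ROO_I-int held 10.4 ± 1.30% in SV PIWI IP, against 1.13 ± 0.285% in testis and 11.8% in SV total RNA. The jockey element (LINEJ1_DM), another non-LTR retrotransposon, came next with 3.80 ± 0.357% in SV PIWI IP and 0.162 ± 0.133% in testis. In testis the sense leaders were PROTOP_A, of a P-element-like DNA transposon family, with 0.554 ± 0.0385% in SV PIWI IP and 13.7 ± 2.29% in testis, and NINJA_I-int, a BEL-Pao type LTR element, with 0.469 ± 0.208% in SV PIWI IP and 13.0 ± 0.771% in testis. Invader1_LTR, of a gypsy-type family, held 0.267 ± 0.0410% in SV PIWI IP and 5.70 ± 0.894% in testis. None of the first 5 families was shared by both groups, and the first 10 shared 1 (10.0% of each list). The 5 leaders held 57.1% to 63.7% of sense transposon counts in the IP libraries and 38.7% to 46.5% in testis.

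Doc in sense had 3629, 3379, 3889.9 and 2962 CPM in the SV PIWI IP libraries, against 417, 308 and 171 CPM in testis (edgeR log2 fold change 3.54 ± 0.52 SE, adjusted p = 9.5e-05). Every IP library held more Doc sense RNA than any testis library, and Doc was the 11th row of the IP outside rRNA and the 161st of testis. LINEJ1_DM in sense had 321, 244, 335 and 319 CPM in the SV PIWI IP libraries, against 31.5, 28.9 and 34.0 CPM in testis (edgeR log2 fold change 3.28 ± 0.42 SE, adjusted p = 3.7e-05), with narrow spread in both groups. ROO_I-int in sense had 695, 758, 895 and 998 CPM in the SV PIWI IP libraries, against 410.4, 294 and 158 CPM in testis (edgeR log2 fold change 1.54 ± 0.46 SE, adjusted p = 0.011). Its groups did not overlap, and its adjusted p was 0.053 without IP 3. DNAREP1_DM in sense had 149.8, 154, 175 and 225 CPM in the SV PIWI IP libraries, against 251, 185 and 102 CPM in testis (edgeR log2 fold change −0.03 ± 0.42 SE, adjusted p = 0.96), and the sign of that difference depended on the scaling. Of the remaining 10 families called higher, TRANSPAC_I-int had 56.4 ± 10.7 CPM in SV PIWI IP against 9.44 ± 2.65 CPM in testis (SD, n = 4 and 3; log2 fold change 2.58), and DOC4_DM, a relative of Doc, had 12.5 ± 3.78 CPM in SV PIWI IP against 1.96 ± 0.965 CPM in testis (2.60). TRANSPAC_LTR, TC1_DM, TIRANT_I-int, TC1-2_DM, DOC6_DM, Gypsy11_I-int, DIVER_LTR and Gypsy10_I-int lay between 0.86 and 2.14.

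The sense families that led testis were far lower in the IP. PROTOP_A in sense had 43.4, 44.1, 43.2 and 46.2 CPM in the SV PIWI IP libraries, against 5726, 4775 and 1257 CPM in testis (edgeR log2 fold change −6.47 ± 0.61 SE, adjusted p = 6.3e-06). NINJA_I-int in sense had 39.5, 51.2, 42.3 and 15.5 CPM in the SV PIWI IP libraries, against 5298, 3851 and 1489 CPM in testis (edgeR log2 fold change −6.57 ± 0.65 SE, adjusted p = 7.7e-06). TIRANT_LTR, of a gypsy-type element, had 3.08, 2.19, 1.00 and 0.293 CPM in the SV PIWI IP libraries, against 726, 507 and 130.2 CPM in testis (edgeR log2 fold change −7.99 ± 0.79 SE, adjusted p = 7.8e-06). In these 3 the highest IP library lay far under T3, the lowest testis library. Copia_I-int, an LTR element, had 113 ± 57.7 CPM in SV PIWI IP against 921 ± 524 CPM in testis in sense (log2 fold change −3.02), with IP 4 at 199 CPM the highest IP library. The listed gypsy-clade elements in sense gave 0 higher and 17 lower of 34 tested (37 rows; median −0.90, and 10 lower with total counts). Gypsy-type rows outside the list, among them TIRANT_I-int, Gypsy10_I-int and Gypsy11_I-int, were called higher in sense. Telomeric elements in sense gave 0 higher and 3 lower of 4, and the germline elements 4 higher and 13 lower of 24 (median −1.38).

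**Figure D2:**
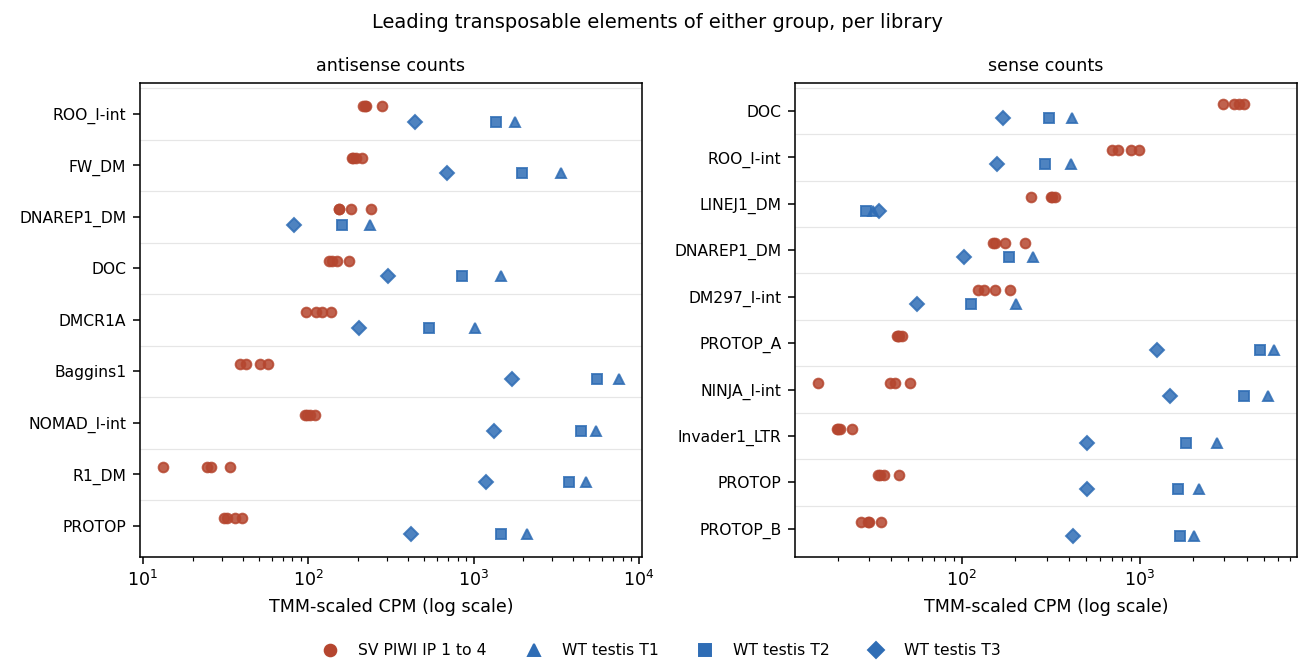
TMM-scaled CPM on a log axis of the leading transposable element families of either group, antisense on the left and sense on the right, with 1 symbol per library (circles for SV PIWI IP, other symbols for testis). In antisense every family shown but DNAREP1_DM is lower in all IP libraries, whereas DOC, ROO_I-int and LINEJ1_DM in sense are higher in all of them.

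The balance of the strands within transposons separated the groups. Antisense reads made up 28.5, 29.4, 26.1 and 30.3% of all transposon counts in SV PIWI IP, against 61.4, 60.8 and 59.6% in testis, means of 28.6 ± 1.79% and 60.6 ± 0.901% (SD, n = 4 and 3; exact permutation p = 0.0571, the smallest possible), with a mean of 39.1% in SV total RNA. Leaving out any single library moved the difference of −32.0 percentage points only to between −32.6 and −31.2. With Doc left out, a choice made after seeing its sense counts, the shares were 41.6, 42.1, 38.2 and 39.3% in SV PIWI IP, against 61.1, 60.6 and 59.5% in testis. The difference was then −20.1 percentage points, so Doc carried part of it and the groups still did not overlap.

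The same shift was counted family by family, over the 64 families that had at least 100 counts on both strands together in all 7 libraries. Of the 64, 47 (73.4%) had a lower antisense share in every IP library than in every testis library, 8 (12.5%) had a higher share and 9 overlapped. The median over families of the mean antisense share was 44.0% in SV PIWI IP and 71.2% in testis, and the mean share was under 50% in 39 families in SV PIWI IP and in 16 in testis. Doc had an antisense share of 3.70, 4.25, 3.31 and 5.59% in SV PIWI IP, against 77.8, 73.5 and 64.0% in testis. HMSBEAGLE_I-int, a gypsy-type LTR element, had 15.6, 16.3, 12.5 and 4.31% in SV PIWI IP, against 81.6, 85.04 and 81.8% in testis. ROO_I-int had 24.3, 22.5, 19.2 and 21.8% in SV PIWI IP, against 81.3, 82.3 and 73.7% in testis. All 3 were mostly sense in the IP and mostly antisense in testis. The jockey element (LINEJ1_DM) had 5.48, 7.80, 5.41 and 4.88% in SV PIWI IP, against 53.1, 47.0 and 25.8% in testis, so that it was mostly sense in every IP library and on both strands about evenly in T1 and T2. R1_DM had 40.9 ± 6.65% in SV PIWI IP against 86.1 ± 1.59% in testis (SD, n = 4 and 3). FW_DM had 61.8 ± 2.16% in SV PIWI IP against 88.0 ± 1.49% in testis, so that it was mostly antisense in both groups, as were Baggins1 and NOMAD_I-int, with 64.5 ± 7.43% in SV PIWI IP against 86.4 ± 2.67% in testis for Baggins1 and 59.6 ± 3.81% in SV PIWI IP against 80.7 ± 1.53% in testis for NOMAD_I-int. Of the 8 families with a higher antisense share in the IP, all but DNAREP1_DM were mostly sense in testis, with means there of 4.02% to 15.6%. Gypsy12_LTR had 58.1 ± 5.98% in SV PIWI IP against 8.38 ± 1.21% in testis. PROTOP_B had 56.1 ± 3.59% in SV PIWI IP against 15.6 ± 1.78% in testis, and PROTOP_A had 45.4 ± 3.58% in SV PIWI IP against 10.2 ± 1.37% in testis. DNAREP1_DM, with reads about evenly on both strands, had 50.8 ± 0.537% in SV PIWI IP against 46.4 ± 1.97% in testis. PROTOP and DMCR1A overlapped, at 48.3 ± 2.30% in SV PIWI IP against 47.3 ± 2.04% in testis for PROTOP and 62.9 ± 1.73% in SV PIWI IP against 61.7 ± 3.19% in testis for DMCR1A.

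**Figure D3:**
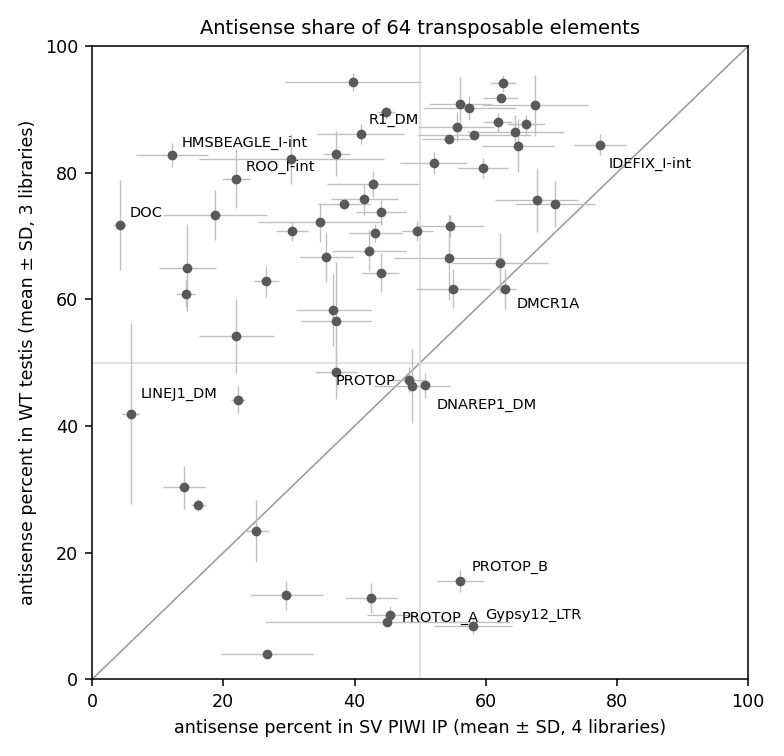
Antisense share of counts, in percent, for the 64 families with at least 100 counts in all 7 libraries, SV PIWI IP on the horizontal and testis on the vertical axis, as means ± SD over 4 and 3 libraries, with a diagonal of equality. Most families lie above the diagonal, DOC and HMSBEAGLE_I-int far to the left, and Gypsy12_LTR, PROTOP_B and PROTOP_A below it.

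The piRNA clusters, the genomic loci that give rise to most piRNAs, were lower in the IP almost throughout. In sense, 78 of 92 cluster rows could be tested, with 2 called higher in SV PIWI IP, 75 lower and 1 not called (median log2 fold change −3.76; 2 and 68 with total counts). In antisense, 64 of 91 could be tested, with 4 higher, 44 lower and 16 not called (median −2.50; 3 and 45 with RLE size factors, 6 and 41 with total counts). All tested rows gave 32.9% higher and 27.5% lower in sense, and 36.6% and 41.6% in antisense. The strand to which a cluster's sense reads refer is not stated, so the strands are given as the tables name them.

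A single feature, cluster92, held 80.3% to 95.5% of cluster counts in the IP libraries and 70.5% to 93.0% in testis. Its sense row had 22110.5, 7057, 5115 and 4204 CPM in the SV PIWI IP libraries, against 64389, 73249 and 89561 CPM in testis (edgeR log2 fold change −2.98 ± 0.62 SE, adjusted p = 0.0011). IP 1 was far above the other IP libraries and still below testis. Its antisense row held between 0 and 16 counts per library. The level of cluster92 moved with that of a 5.8S rRNA pseudogene (CR45863), which made up 1.22, 0.695, 0.501 and 0.476% of assigned counts in SV PIWI IP, against 7.40, 7.46 and 6.92% in testis. The ratio of cluster92 to the pseudogene was 1.19 to 1.46 in the IP libraries and 0.778 to 0.884 in testis, and whether the 2 features share reads was not tested. The remaining clusters are therefore given without cluster92.

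Without cluster92, testis cluster reads were concentrated in a few loci and those of the IP were spread over many. The 5 leading clusters held 28.4% to 31.4% of these counts in the IP libraries and 58.3% to 62.4% in testis. In SV total RNA the 5 leading clusters held 57.0 and 60.4%, near the testis level. Testis was led by cluster9 with 2.43 ± 0.581% in SV PIWI IP, against 21.6 ± 1.18% in testis. The flamenco cluster (flam), a unistrand source active in somatic gonad cells, held 6.34 ± 0.843% in SV PIWI IP and 14.2 ± 1.34% in testis. Next came cluster103 with 0.942 ± 0.348% in SV PIWI IP and 11.5 ± 0.897% in testis, and cluster5 with 1.66 ± 0.517% in SV PIWI IP and 9.82 ± 0.528% in testis. The 42AB locus, the main dual-strand cluster of the ovarian germline, held 3.41 ± 0.460% in SV PIWI IP and 3.78 ± 0.174% in testis. By mean share the first cluster of the IP was cluster79 with 7.74 ± 1.24% in SV PIWI IP and 0.380 ± 0.315% in testis, and cluster79 held a mean of 25.1% in SV total RNA. It was first in IP 1 and IP 4, and cluster93 in IP 2 and IP 3. By mean it was followed by cluster93, flam, cluster22 and cluster135, which held 6.48 ± 2.54%, 6.34 ± 0.843%, 5.07 ± 0.468% and 4.11 ± 0.961%.

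In CPM, cluster9 in sense had 21.8, 25.5, 14.9 and 13.5 CPM in the SV PIWI IP libraries, against 5184, 3971 and 1268 CPM in testis (edgeR log2 fold change −7.51 ± 0.65 SE, adjusted p = 4.5e-06). The antisense row of cluster103 had 12.4, 12.1, 6.58 and 4.97 CPM in the SV PIWI IP libraries, against 2902, 2349 and 745 CPM in testis (edgeR log2 fold change −7.77 ± 0.68 SE, adjusted p = 4.5e-06). These were among the widest gaps of any cluster, with no IP library near the testis range, and cluster5 and cluster18 in sense had log2 fold changes of −6.78 and −7.38. Flam in sense, on chromosome X at 21631891 to 21790731 of Release 6 (dm6), had 55.8, 61.3, 43.1 and 47.1 CPM in the SV PIWI IP libraries, against 3772, 2189 and 826 CPM in testis (edgeR log2 fold change −5.45 ± 0.58 SE, adjusted p = 1.2e-05). The antisense row of flam had a log2 fold change of −4.28. For 42AB in sense the values were 18.4, 18.2, 18.2 and 24.9 CPM in the SV PIWI IP libraries, against 691, 471 and 162 CPM in testis (edgeR log2 fold change −4.47 ± 0.52 SE, adjusted p = 2e-05), with −3.90 in antisense. Both the somatic and the germline cluster were thus lower in the IP in each library. The first cluster of the IP by mean share, cluster79, had 85.9, 65.7, 57.5 and 79.9 CPM in the SV PIWI IP libraries, against 33.0, 38.9 and 43.6 CPM in testis in antisense (edgeR log2 fold change 0.91 ± 0.35 SE, adjusted p = 0.036), without overlap. This call was lost with RLE size factors and in 6 of the 7 fits without a single library, with T3 the exception, and the sense row of cluster79 was not called (0.18). The firmest cluster call towards the IP was cluster55 in antisense, with 32.7, 32.1, 35.2 and 40.4 CPM in the SV PIWI IP libraries, against 9.71, 9.97 and 2.36 CPM in testis (edgeR log2 fold change 2.27 ± 0.45 SE, adjusted p = 0.0008). The other calls towards the IP were cluster29 and cluster89 in antisense (2.20 and 1.98) and cluster42 and cluster142 in sense (1.16 and 1.07). The calls of cluster42 and cluster142 were lost without IP 3, and that of cluster142 also without T2.

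**Figure D4:**
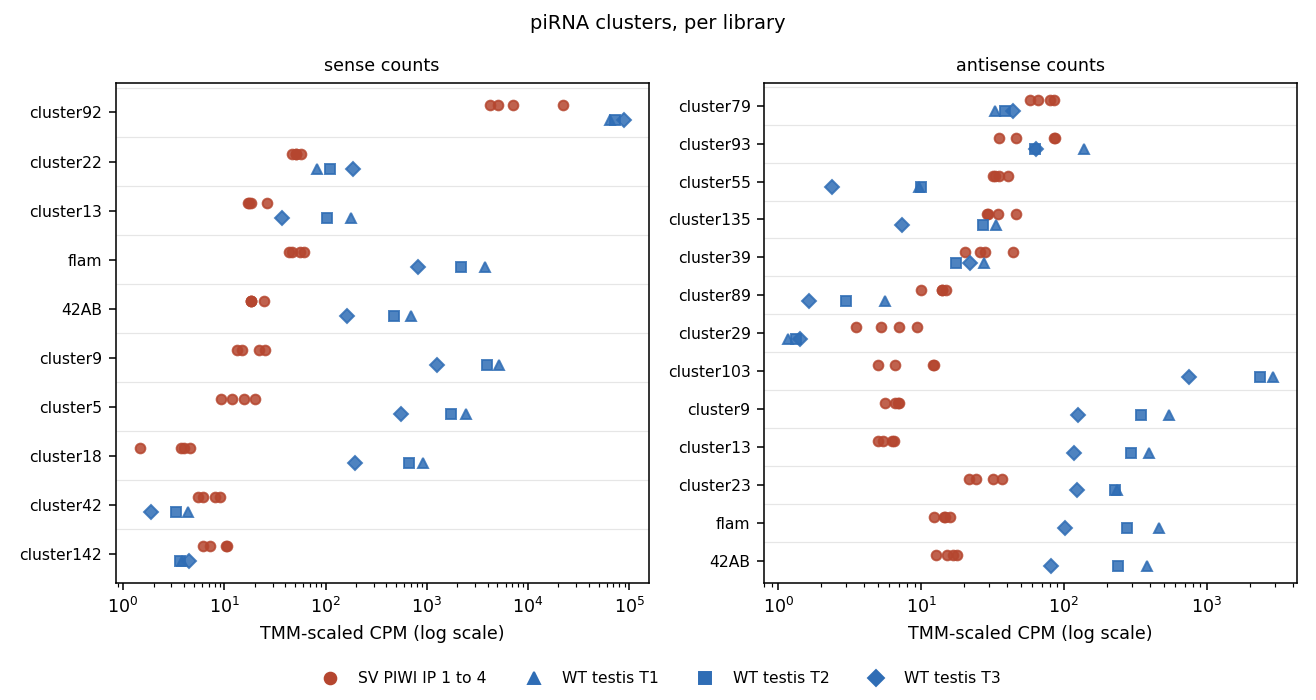
TMM-scaled CPM of piRNA clusters on a log axis, sense on the left and antisense on the right, with 1 symbol per library (circles for SV PIWI IP, other symbols for testis). For cluster9, cluster103, flam and 42AB all testis libraries lie above all IP libraries, whereas cluster79, cluster55, cluster89 and cluster29 in antisense are higher in all IP libraries.

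Genic sources tied to the testis were lower in the IP. The Suppressor of Stellate repeats, Su(Ste), lie on the Y chromosome, and their antisense RNA silences the Stellate genes in the male germline. The reads antisense to the 27 Su(Ste) rows summed to 37.6, 68.0, 53.6 and 35.6 CPM in SV PIWI IP, against 8979, 6581 and 1983 CPM in testis. All 26 tested rows were called lower (median log2 fold change −7.32), as were all 21 tested Su(Ste) sense rows. Single copies cannot be told apart, since the handling of reads with several positions is not stated. The 35 Stellate sense rows summed to 2.61, 1.98, 1.35 and 0 CPM in SV PIWI IP, against 232, 177 and 47.6 CPM in testis. Of these rows 12 were tested and all were called lower. The 35 rows together held 47, 37, 15 and 0 counts in the IP libraries. They could pass the count filter only through testis, so the 12 calls add nothing to the sums. Without the filter, Su(Ste) and Stellate rows together gave 0 higher and 47 lower of 62 in sense, and 0 and 39 of 40 in antisense. The 3′ UTR of traffic jam (tj; chromosome 2L, 19464267 to 19467758), which encodes a Maf transcription factor of somatic gonad cells and whose 3′ UTR yields piRNAs, had 0.514, 0.320, 0.188 and 0 CPM in the SV PIWI IP libraries, against 106, 53.5 and 22.4 CPM in testis (edgeR log2 fold change −7.58 ± 0.65 SE, adjusted p = 4.4e-06). Each testis library held more of it than any IP library. Hairpin RNA genes (hpRNAs), long inverted repeats that Dicer-2 cuts into endogenous siRNAs, summed to 199.98, 388, 528 and 359 CPM in SV PIWI IP, against 3142, 2968 and 828 CPM in testis. This sum is scaled by total counts and the single rows below by TMM, so a row cannot be read as a part of it. All 5 tested hpRNA rows of 8 were called lower. The most abundant, hpRNA:CR46342 (chromosome X, 4921677 to 4928133), had 166, 216, 259 and 160.1 CPM in the SV PIWI IP libraries, against 2076, 2087 and 700.0 CPM in testis (edgeR log2 fold change −3.02 ± 0.50 SE, adjusted p = 0.00022). The others were hpRNA:CR18854, hpRNA:CR32207, hpRNA:CR32205 and hpRNA:CR33940, with log2 fold changes of −3.35, −3.63, −4.70 and −4.93. The sum over the testis germline rows was also lower in the IP, with 132 to 262 CPM in SV PIWI IP against 1440 to 1994 CPM in testis. The part of these rows in the result was not tested.

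Most miRNAs of a list named broadly expressed were higher in the IP, and most of a list of testis miRNAs were lower. The first name is loose: that list holds the muscle miRNA mir-1, and mir-957, which had no counts in testis. Of 230 miRNA rows, 116 could be tested, with 53 called higher in SV PIWI IP, 39 lower and 24 not called (median log2 fold change 0.91). These are 45.7% higher and 33.6% lower, against 32.9% and 27.5% of all tested sense rows. The broadly expressed list gave 18 higher and 1 lower of 26 tested (median 2.73; 20 and 0 with total counts), and the list of testis miRNAs 0 higher and 18 lower of 20 tested (22 rows; median −3.38; 17 lower with total counts). The muscle miRNA mir-1 (chromosome 2L, 20487441 to 20487531) was the first row of the IP outside rRNA, with 12.2 ± 1.95% of those counts in SV PIWI IP and 0.690 ± 0.259% in testis. It had 28656, 43141, 28308 and 31457 CPM in the SV PIWI IP libraries, against 2867, 3288 and 1231 CPM in testis (edgeR log2 fold change 3.74 ± 0.56 SE, adjusted p = 0.00012). The muscle rows were higher in the IP as well, with 715 to 2602 CPM in SV PIWI IP against 180 to 334 CPM in testis, and their part in the result was not tested. SV total RNA held a mean of 12.4% mir-1 outside rRNA. The next miRNAs of the IP were mir-8 with 16718 ± 3279.8 CPM in SV PIWI IP against 484 ± 197 CPM in testis, mir-14 with 14152 ± 3141 CPM in SV PIWI IP against 463 ± 120.0 CPM in testis, and the developmental timing miRNA let-7 with 10712 ± 2707 CPM in SV PIWI IP against 263 ± 63.1 CPM in testis (SD, n = 4 and 3). Their log2 fold changes were 5.11, 4.93 and 5.35, with no overlap between groups. The bantam miRNA (ban), which promotes growth, had the highest mean share in testis, with 3.10 ± 0.490% of miRNA counts in SV PIWI IP, against 10.4 ± 1.45% in testis. The first miRNA was mir-7 in T1, ban in T2 and mir-276a in T3. In CPM ban was not called (log2 fold change 0.31), and neither was mir-7 (−0.84), which was called lower without T3. The call of mir-184 (1.53) was lost without IP 2 or without IP 3.

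At the extremes, mir-281-2 had 1759, 1621, 1244 and 1324 CPM in the SV PIWI IP libraries, against 4.42, 10.6 and 7.08 CPM in testis (edgeR log2 fold change 7.66 ± 0.62 SE, adjusted p = 3.7e-06), and its near-identical partner mir-281-1 had 6.69. How reads were split between them is not stated. mir-957 was at 0 in all 3 testis libraries and at least 10.5-fold higher in the IP, against a floor of 3 counts per testis library. mir-277, mir-279 and mir-10 had log2 fold changes of 4.44, 5.03 and 3.89. The 1 miRNA of the broadly expressed list called lower was mir-305 (−1.43), a call lost with total counts, without the count filter and without T2. On the testis side, mir-985 (chromosome X, 16191254 to 16191339) had 0, 0.137, 0.125 and 0 CPM in the SV PIWI IP libraries, against 36.8, 56.5 and 9.67 CPM in testis (edgeR log2 fold change −8.39 ± 0.74 SE, adjusted p = 4.5e-06). mir-312, in neither list and chosen after its values were seen, held 0.0174 ± 0.00867% of miRNA counts in SV PIWI IP and 3.03 ± 2.02% in testis (log2 fold change −5.39). mir-982, mir-991, mir-984 and mir-964 lay between −3.82 and −3.28. The list's 2 uncalled members were mir-974 (−0.41) and mir-972 (−0.15), whose sign changed with total counts.

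Among genes in sense, Msp300 and lncRNA:Hsromega had the highest mean shares in the IP and 7SL RNA had the highest share in each testis library. The call balance of coding exons depended on the scaling: of 5838 tested rows 1620 were higher and 1620 lower (median log2 fold change 0.11), against 1455 and 1705 with RLE size factors and 2100 and 1059 with total counts. For 3′ UTRs the counts were 989 higher and 466 lower of 2463 (40.2% and 18.9%), and for 5′ UTRs 714 and 237 of 1368 (52.2% and 17.3%). Of all tested sense rows 32.9% were higher and 27.5% lower, and coding exons, at 27.7% each way, lay near that. Msp300 (chromosome 2L, 5100877 to 5207002), which encodes the nesprin of muscle nuclei, had 2449, 2876, 3398 and 3218 CPM in the SV PIWI IP libraries, against 135, 172 and 276 CPM in testis (edgeR log2 fold change 3.94 ± 0.51 SE, adjusted p = 4.2e-05). The long non-coding RNA of omega speckles, lncRNA:Hsromega (chromosome 3R, 21296127 to 21317836), had 2308, 1991, 2761 and 2881 CPM in the SV PIWI IP libraries, against 51.2, 68.1 and 144 CPM in testis (edgeR log2 fold change 4.82 ± 0.58 SE, adjusted p = 2.4e-05). Both were higher in each IP library than in any testis library. mgl (chromosome X, 9358496 to 9500129), which encodes the endocytic receptor Megalin, had 1078, 1153, 1147 and 951 CPM in the SV PIWI IP libraries, against 75.7, 207 and 513 CPM in testis (edgeR log2 fold change 2.03 ± 0.59 SE, adjusted p = 0.0098); T3 came closest to the IP, and the adjusted p was 0.053 without T2. eEF2, a translation elongation factor, had a log2 fold change of 2.70. In testis the leader was the 7SL RNA of the signal recognition particle (CR32864; chromosome 3R, 6822500 to 6822798), which held 2.46 ± 1.17% of gene sense counts in SV PIWI IP and 9.92 ± 1.79% in testis. Its log2 fold change was −1.94. The 3′ UTR of Mst84Db, a transcript of spermatids, had 5.50, 4.66, 2.01 and 2.93 CPM in the SV PIWI IP libraries, against 229.6, 398 and 564 CPM in testis (edgeR log2 fold change −6.70 ± 0.56 SE, adjusted p = 4.1e-06), without overlap.

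Fbp1 (chromosome 3L, 14094589 to 14098053), which encodes a fat body receptor for storage proteins, was high in a single IP library. It had 4237, 47.0, 6.46 and 2.34 CPM in the SV PIWI IP libraries, against 0.294, 0.665 and 2.12 CPM in testis (edgeR log2 fold change 9.94 ± 3.50 SE, adjusted p = 0.042). Summed over its exon and UTR rows and scaled by total counts, Fbp1 had 302 and 5.83 CPM in the 2 libraries of SV total RNA. IP 1 held nearly all of it and IP 4 lay near T3, and the call was lost under 6 of the alternatives: total counts, no count filter, T1 to T3 as separate groups, and without T1, T2 or T3. Without IP 1 the log2 fold change was 4.09, and the row stayed called. The fat body sum of IP 1 was high too, and its part in the result was not tested. Other rows, picked from called rows without overlap between the groups, were high in every IP library and nearly empty in testis. CG31872 (chromosome 2L, 10639931 to 10643539), lncRNA:CR44980 and Met75Ca were at 0 in all 3 testis libraries and at least 91.4-fold, 90.8-fold and 54.9-fold higher in the IP, against a floor of 3 counts per library. Acp36DE (chromosome 2L, 18356047 to 18359028), a seminal fluid protein needed for sperm storage, had 1 count in testis, and the pooled ratio of SV PIWI IP over testis was 948 (95% counting interval 170.1 to 37456). The accessory gland rows together had 222 to 404 CPM in SV PIWI IP against 2.58 to 4.11 CPM in testis, and their part in these results was not tested.

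Among antisense reads of genes, asRNA:CR31144 was the first row in IP 2, IP 3, IP 4, T1 and T3, asRNA:CR11538 in IP 1 and Su(Ste):CR42410 in T2. Other rows were higher in the IP: lncRNA:CR45347 (chromosome 2L, 20562247 to 20575720) had 101, 75.3, 88.5 and 101 CPM in the SV PIWI IP libraries, against 0.294, 0.332 and 0.236 CPM in testis, with 3 counts in testis and a pooled ratio of 310 (95% counting interval 106 to 1502). lncRNA:CR43836 had 103, 85.8, 118 and 142 CPM in the SV PIWI IP libraries, against 4.12, 4.32 and 4.72 CPM in testis (edgeR log2 fold change 4.67 ± 0.43 SE, adjusted p = 5.7e-06). Both were higher in every IP library. asRNA:CR31144, whose span overlaps RpL3 and snoRNA genes, was high in both groups, with 212, 227, 206 and 186 CPM in the SV PIWI IP libraries, against 898, 451 and 563 CPM in testis (edgeR log2 fold change −1.62 ± 0.41 SE, adjusted p = 0.0041), and its call was lost with total counts. asRNA:CR45874, which overlaps RpS9, had a log2 fold change of −3.21. Reads antisense to such a gene and reads of the gene it overlaps cannot be told apart here, and lncRNA:CR43836 likewise overlaps rdgA and Nost. asRNA:CR11538, which overlaps the fat body storage gene Lsp2, had 1092, 13.5, 1.38 and 0 CPM in the SV PIWI IP libraries, against 0.589, 0.997 and 1.42 CPM in testis and was not called (edgeR log2 fold change 8.07 ± 3.30 SE, adjusted p = 0.069). IP 1 alone was high, the row had too few counts to be tested without IP 1, and it was called without IP 4. Among satellites, the Responder repeat (RSP) in antisense had 0.916 ± 0.813 CPM in SV PIWI IP against 117 ± 78.1 CPM in testis (log2 fold change −7.31). A-rich repeats were higher in the IP on both strands, at 2.06 in sense and 2.44 in antisense. Of 3026 antisense rows of simple and satellite repeats only 215 were tested, with 157 higher and 17 lower. In sense 175 of 2911 were tested, with 110 higher and 19 lower. Of all tested rows 36.6% were higher and 41.6% lower in antisense, and 32.9% and 27.5% in sense. A row could pass the count filter through the libraries of a single group, so these counts describe the rows that passed. Without the filter 367 were higher and 20 lower of 2501 in antisense, and 300 and 25 of 2361 in sense. All rows of that fit gave 6742 higher and 4063 lower of 53695. The share of higher repeats was then near that of all rows, and the share of lower repeats was smaller.

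**Figure D5:**
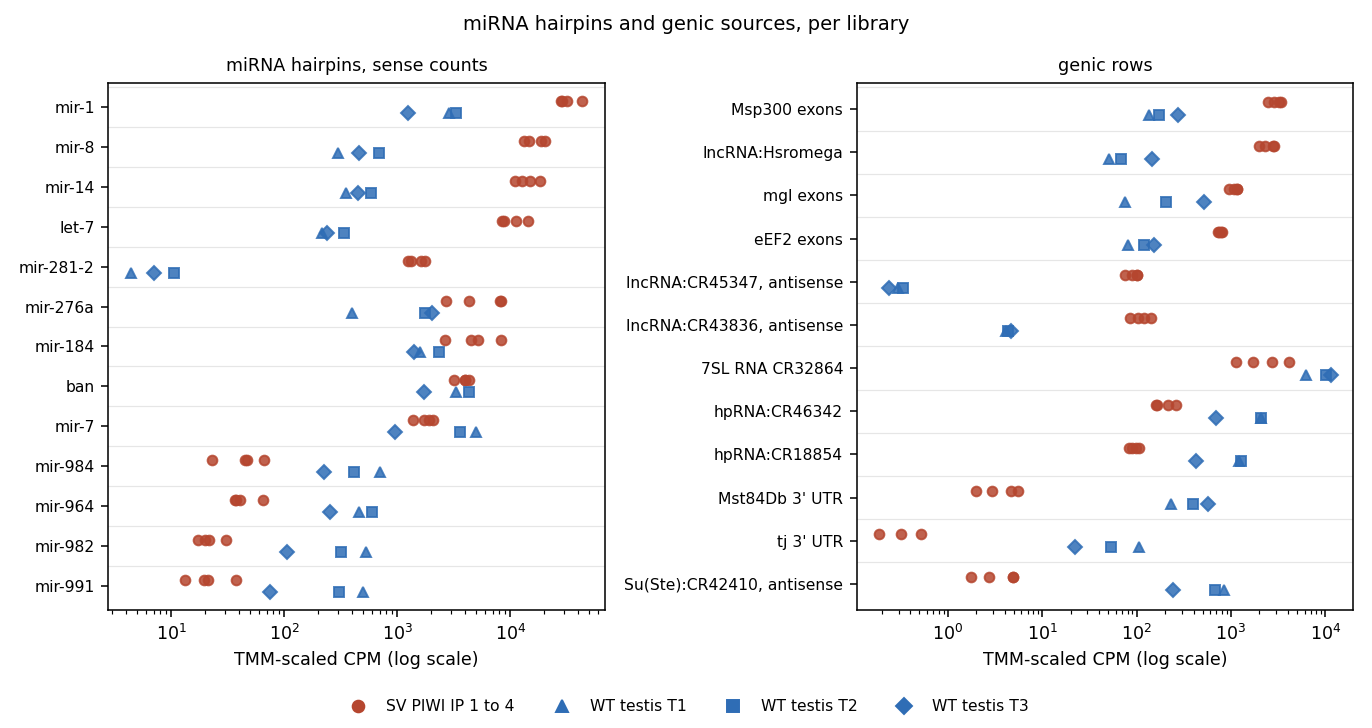
TMM-scaled CPM of miRNA hairpins (left) and genic sources (right) on a log axis, with 1 symbol per library (circles for SV PIWI IP, other symbols for testis), and rows at 0 CPM not drawn, as for the tj 3′ UTR in IP 4. mir-1, mir-8, Msp300 and lncRNA:Hsromega are higher in all IP libraries, ban and mir-7 overlap, and mir-984, the tj 3′ UTR and hpRNA:CR46342 are higher in all testis libraries.

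The order of features within a class was nevertheless related between the groups. Over families, the Spearman correlation of antisense transposon counts was 0.942 to 0.990 between IP libraries, 0.990 to 0.993 between testis libraries and 0.745 to 0.854 between an IP and a testis library. For clusters on both strands it was 0.582 to 0.759 between groups, and for miRNAs 0.759 to 0.831. Families share library and depth in these values, so they describe the libraries and were not tested.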

How the data were processed

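The authors deposited whole-number counts per feature, in a sense and an antisense table. Tools named in the submitters' processing notes are Bowtie 1.2.3, Trim Galore 0.5.0, Subread 2.0.0, SAMtools 1.8 and featureCounts, and the builds there are BDGP6 and dm6. Size selection, blocking of 2S rRNA and the small RNA kit are given in the labels' protocols, where the text on UV-crosslinking and immunoprecipitation is attached to IP 1 alone among the 4 IP libraries. The handling of reads with several positions is not given in the sources used here, so repeat families, Su(Ste) copies and near-identical miRNAs are uncertain as single rows. Of the columns of per-sample values, 12 on each strand were not used, and SV total RNA entered no test. No molecular identifiers are mentioned, and counting error is all that an interval or floor covers here.

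The counts of rows with a value in all 7 libraries were fitted together, both strands in 1 fit, by the robust quasi-likelihood test of edgeR 4.0.16 under R 4.3.3 (TMM, filterByExpr, Benjamini-Hochberg adjustment over 11804 rows, threshold 0.05), with T1, T2 and T3 as 1 group. Shares used Python 3.11.15 and exact two-sided permutation tests. Replicates of a group differed by more than counting error (lowest chi-square per row 10.2). On simulated data with these library sizes, the fit called 2.22% of tested rows changed 2-fold, 71.1% at 4-fold and 100% at 8-fold. Of 8825 unchanged rows 4 were called. A row that was not called may thus still differ 2-fold. Alternatives were RLE size factors, total counts, no count filter, DESeq2 1.42.0, T1 to T3 as separate groups, structural RNA left out, every row of a library's own column for the shares, and each library left out. Members, lists and the rule for named rows were chosen with earlier results of these data known. The rule took the 10 leading rows outside rRNA, the 5 leading rows per class in each group, and the lists. It also took the 10 widest differences per direction among called rows with a mean of at least 10 CPM and no overlap between the groups. For rows named by that part alone, the call and the lack of overlap follow from the rule. Other named rows were chosen after their values were seen. Positions are from RefSeq's Release 6 annotation.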

Additional observations from a re-analysis of the deposited data

Results flagged for a closer look

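Among 176 values with 4 IP libraries each, 21 (11.9%) had a library set apart from the other 3 by the Dixon criterion, which chance meets in about 1 of 20. IP 1 stood apart in 8 of them. Fat body rows summed to 5762 CPM of total counts in IP 1, against 264 to 339 in the other 3. In TMM-scaled CPM, Fbp1 exons had 4237 against 2.34 to 47.0, and asRNA:CR11538 in antisense had 1092 against 0 to 13.5. Its cluster92 sense row had 22110.5 CPM, against 4204 to 7057, and sense clusters made up 8.18% of its counts outside rRNA, against 1.81% to 2.61%. IP 1 was low in the miRNA share of assigned counts (8.29%, against 16.5% to 18.0%), in mir-279 (2375 CPM, against 3034 to 3149.7) and in the hemocyte rows (169.6 CPM, against 242 to 244).

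IP 4, the library with the fewest counts, was high in antisense ROO_I-int (278 CPM, against 213 to 223), HETA (31.9, against 15.5 to 17.2), TART (24.9, against 11.4 to 12.9) and TART_B1 (2.34, against 0.627 to 0.881). It was also high in sense for Copia_I-int (199.0 CPM, against 74.0 to 93.6), DOC4_DM (18.1, against 10.2 to 11.2), cluster13 (26.6, against 16.96 to 18.2) and 42AB (24.9, against 18.2 to 18.4). It was low in antisense cluster89 (9.95 CPM, against 14.0 to 14.9) and in mir-312 (7.02, against 24.4 to 27.5). IP 2 was low in sense LINEJ1_DM (244 CPM, against 319 to 335) and high in sense Invader1_LTR (24.2, against 19.9 to 20.6). IP 3 was high in mir-964 (64.8 CPM, against 36.4 to 40.7).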

How the results depend on the processing

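No paired analysis was possible because the testis columns carry no replicate number. The counts of 3920 higher and 3372 lower rows were 3601 and 3526 with RLE size factors, 4916 and 2423 with total counts, 3682 and 3546 with DESeq2, and 4535 and 3229 with T1 to T3 as separate groups, where the spread comes from the IP libraries alone and 1 call changed sign. Without the count filter, 53695 rows were tested and 6742 were higher. Leaving out single libraries gave 2661 to 5005 higher and 2807 to 3889 lower. The count filter was applied anew in each of these fits, so the rows tested ranged from 9180 to 15938. Leaving out IP 2 or IP 3 gave the fewest higher (2661 of 9247 and 2674 of 9180 tested) and leaving out T3 the most (5005 of 15172). Of the named rows' values under these alternatives, 1610 kept direction and call, 33 lost the call, 8 gained it and 20 changed sign.

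The sign changes fell on rows that were not called. DNAREP1_DM in sense (−0.03) was 0.55 with total counts, 0.49 without the filter, 0.064 with T1 to T3 separate, 0.0141 without IP 1, 0.31 without T1 and 0.04 without T2. Antisense cluster93 (−0.47) was 0.0951 with total counts, 0.0795 without the filter and 0.0376 without T1. Antisense LINEJ1_DM (−0.37) was 0.14, 0.17 and 0.0454 under the same 3. mir-972 (−0.15) was 0.47 with total counts, 0.38 without the filter, 0.13 with T1 to T3 separate, 0.000877 without IP 2, 0.19 without T1 and 0.21 without T2, and mir-974 (−0.41) was 0.21 with total counts and 0.11 without the filter. The snRNA share difference ranged from −0.0404 to 0.00294 percentage points without single libraries, and that of antisense 5′ UTR reads from −0.000802 to 0.00596, or from −0.00295 to 0.00447 outside rRNA, with −0.00151 without IP 3. The cause was not tested. Depth limits rows near the floor of 3 counts.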
